A study of Mus musculus with 15 samples.

Results

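Non-ligated common carotid arteries of mice labelled Has3-deficient (4 arrays) were compared with non-ligated arteries of wildtype mice (4 arrays). These 8 arrays of the 15 in the series were chosen by their labels alone. The other 7 arrays hold ligated arteries, 4 wildtype and 3 Has3-deficient, and entered the fit as separate groups so that all groups shared an estimate of the spread. All mice were female, 21 to 22 weeks old and of strain C57Bl/6J in both genotypes. Per the labels' protocols the left common carotid was tied in both genotypes and tissue was taken 5 days later; whether the non-ligated vessel is that of the other side of the same mice is not said. The way in which Has3 was deleted is not given either. Whether each array stands for its own animal is not stated, so the p-values cover only the spread between arrays, which may be technical. Of the 33793 probe sets, 23521 carry exactly 1 gene symbol, and they give 22180 genes.

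Has3 belongs to the family of hyaluronan synthases, enzymes of the plasma membrane that build hyaluronan from sugar nucleotides and push the chain out of the cell. Hyaluronan is a long unsulfated polysaccharide of the matrix around smooth muscle cells and in the inner and outer coats of the artery, and it binds receptors such as Cd44 and proteoglycans such as versican. An artery wall has an endothelium, a media of contractile smooth muscle and an adventitia of fibroblasts, macrophages and nerve fibres, with fat and nerve running alongside. Tissue excised with the vessel therefore adds its own RNA to the sample.

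All values are log2 values relative to the median of the probe set over the 15 arrays, so they show differences between arrays and not levels. A rough trace of the level survives in how finely the numbers were stored: 3594 genes (16.2%) have in all arrays the coarse steps of large numbers, and are called high-signal here. By this trace the samples carried the genes of an artery wall: 18 of 24 contractile smooth muscle genes, 17 of 22 adventitial fibroblast genes and 10 of 20 endothelial genes were high-signal. None of the 39 neuron genes was high-signal, and 7 of the 33 fat genes were. As the trace must hold in all arrays, it cannot show the level of genes whose tissue was present in only some arrays.

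In the arrays labelled Has3-deficient 19 of 22180 genes passed an adjusted p of 0.05 (0.0857%), 2 higher (0.00902%) and 17 lower (0.0766%). The higher genes were the microRNA gene Mir3108 and the 5S ribosomal RNA gene n-R5s136. The lower genes included the lysosomal glycosidase Ctbs, the galactosyltransferase B4galt1, the ectoenzyme Enpp3, the RNA-binding protein Cirbp and the DNA repair ATPase Rad50, and each of the 17 differed by less than 2-fold. At an unadjusted p of 0.05 there were 1185 genes higher (5.34%) and 1794 lower (8.09%), 2979 in both directions together (13.4%), where 1110 in both directions would be expected if no gene differed. The values of the groups did not overlap for 532 genes that were higher (2.40%) and 847 that were lower (3.82%).

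The Has3 probe set read 0.00, -0.08, -0.02 and 0.22 in wildtype arrays 1 to 4 and 0.21, 0.41, -0.07 and -0.08 in Has3-deficient arrays 1 to 4. The groups overlapped, and the difference was 0.09 ± 0.14 (SE; adjusted p = 0.853). Since the sources do not say which part of the gene was removed or which part the probe set reads, this value does not check the labels, and each direction given here rests on them. Has2, another synthase, differed by -0.32 ± 0.18 (adjusted p = 0.489), with values of -0.24, -0.37, 0.00 and -0.33 in wildtype and -0.88, -0.93, -0.26 and -0.14 in Has3-deficient arrays. Its groups overlapped, Has3-deficient arrays 1 and 2 being the lowest. Has1 differed by 0.19 ± 0.21 (adjusted p = 0.755). No synthase gene passed the test.

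Mir3108 was higher in the Has3-deficient arteries. Its mature sequences in RefSeq (build GRCm38.p6) are shown because it had the lowest p of all genes both in the non-ligated and in the ligated arteries; capitals mark the seed, bases 2 to 8, by which a microRNA pairs with its targets. The 5p strand lies at chr8:108936870-108936892 and the 3p strand at chr8:108936911-108936931, both on the plus strand. No other mature mouse microRNA of the table shares either seed.
mmu-miR-3108-5p: gUCUCUAAagcuagacguuccgg
mmu-miR-3108-3p: cGUCUAGGucuagagucucaa

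Mir3108 read 0.00, -0.31, -0.50 and -0.10 in the wildtype non-ligated arrays. In the Has3-deficient non-ligated arrays it read 0.88, 1.24, 0.79 and 0.47. Every Has3-deficient array was above every wildtype array, and the difference was 1.07 ± 0.14, or 2.10-fold (adjusted p = 0.0339). The ligated arrays, which share no array with this comparison, gave -0.43, -0.34, -0.44 and -0.47 in wildtype and 0.70, 0.46 and 0.49 in Has3-deficient arteries. There too the groups did not overlap, with a difference of 0.97 ± 0.15 and an unadjusted p of 1.66e-05, the lowest of all genes in that comparison, while the adjusted p of 0.368 did not pass. The array target covers the microRNA gene, so the value does not show which mature strand was present.

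Mir3108 lies on chromosome 8, as does Has3, inside the span of Zfhx3, a gene for a large homeobox transcription factor. Between Mir3108 and Has3 lie 40 genes of the RefSeq table, 16 of them protein-coding. Zfhx3 itself differed by 0.07 ± 0.12 (adjusted p = 0.871). Within 5 Mb of Has3 151 other genes were measured, and Mir3108 alone of them passed. Of these neighbours 13 were higher and 6 lower at an unadjusted p of 0.05, that is 8.61% and 3.97% against 5.34% and 8.09% of all genes, and their median difference was 0.05 against 0.01 over all genes. Of the 151, 97 were positive and 54 negative (11998 and 10182 of all genes), and the differences ran from -0.44 to 1.07. In 6 the groups did not overlap with higher values and in 3 with lower values (3.97% and 1.99% against 2.40% and 3.82% of all genes). Mtss2, a higher neighbour that encodes an actin-binding scaffold protein, differed by 0.28 ± 0.12 (adjusted p = 0.315) here and by 0.28 in the ligated arteries. Over the 151 neighbours the median in the ligated arteries was 0.004. There 3 were higher and 5 lower at an unadjusted p of 0.05 (1.83% and 2.27% of all genes). In the non-ligated arteries Chtf8, another higher neighbour and a subunit of a loader of the replication clamp, differed by 0.24 ± 0.08 (adjusted p = 0.211).

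n-R5s136, one of the many gene copies for the 5S RNA of the large ribosomal subunit, read -0.66, -1.42, -0.56 and -0.86 in wildtype arrays and 0.23, 0.94, 0.60 and 0.04 in Has3-deficient arrays. The groups did not overlap, wildtype array 2 being the lowest and Has3-deficient array 2 the highest. The difference was 1.33 ± 0.20, or 2.51-fold (adjusted p = 0.0385). In the ligated arteries it was -0.05 (unadjusted p = 0.815). 5S copies are near-identical in sequence, so this value cannot be assigned to 1 copy.

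The 17 lower genes are given here one by one, with no theme tested across them. Ctbs, a lysosomal enzyme that splits the chitobiose core of N-linked glycans, read 0.22, 0.41, 0.22 and 0.11 in wildtype and -0.19, -0.38, -0.31 and -0.36 in Has3-deficient arrays. All wildtype values were above 0 and all Has3-deficient values below it, with a difference of -0.55 ± 0.09 (adjusted p = 0.0476). Gpr137b, a protein of the lysosomal membrane, read -0.03, -0.26, 0.00 and -0.21 in wildtype and -0.55, -0.64, -0.57 and -0.63 in Has3-deficient arrays. Its Has3-deficient arrays lay close together and the difference was -0.47 ± 0.07 (adjusted p = 0.0339). B4galt1, the Golgi enzyme that adds galactose to N-acetylglucosamine, read -0.22, -0.20, 0.00 and -0.09 in wildtype and -0.63, -0.45, -0.64 and -0.46 in Has3-deficient arrays. The groups were apart, and the difference was -0.42 ± 0.06 (adjusted p = 0.0385). Tmem87b, a membrane protein of the Golgi, differed by -0.39 ± 0.07 (adjusted p = 0.0476), with no overlap.

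Enpp3, an ectoenzyme that cleaves nucleotides outside the cell, read 0.41, 0.81, 0.61 and 0.55 in wildtype and -0.05, -0.21, 0.15 and 0.07 in Has3-deficient arrays. The lowest wildtype array was above the highest Has3-deficient array, and the difference was -0.61 ± 0.10, or 1.52-fold lower (adjusted p = 0.0476). Of the 17 ectonucleotidase genes measured Enpp3 alone passed, and 13 had a negative difference (median -0.10 against 0.01 over all genes).

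Cirbp, the cold-inducible RNA-binding protein, read 0.41, 0.61, 0.67 and 0.50 in wildtype and 0.09, 0.00, 0.04 and -0.02 in Has3-deficient arrays. None of the Has3-deficient arrays reached the wildtype range; the difference was -0.52 ± 0.08 (adjusted p = 0.0476). Of 15 cold- and heat-responsive genes it was the only one to pass. The heat shock protein gene Hspa8 differed by 0.40 ± 0.11 (adjusted p = 0.155). It alone of the list was higher without overlap (6.67% against 2.40% of all genes). Nxt2, a partner of the mRNA export receptor, read 0.36, 0.49, 0.42 and 0.39 in wildtype and 0.05, 0.00, -0.05 and 0.15 in Has3-deficient arrays. Its difference was -0.38 ± 0.05 (adjusted p = 0.0339). Rbm34, an RNA-binding protein, differed by -0.35 ± 0.06, and Swt1, related to a yeast endonuclease that surveys nuclear RNA, by -0.40 ± 0.06 (both adjusted p = 0.0476).

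Rad50, the ATPase of the complex that holds broken DNA ends, read 0.16, 0.39, 0.09 and 0.25 in wildtype and -0.34, -0.15, -0.16 and -0.22 in Has3-deficient arrays. The signs of the groups were opposite, with a difference of -0.44 ± 0.07 (adjusted p = 0.0476). Of 18 genes of double-strand break repair 14 had a negative difference, 6 of them at an unadjusted p of 0.05 (33.3% against 8.09% of all genes), and 5 had groups that did not overlap (27.8% against 3.82% of all genes); Rad50 alone passed. Xrcc4 and Xrcc5, parts of the end-joining machinery, differed by -0.23 ± 0.05 and -0.34 ± 0.08 (adjusted p = 0.0928 and 0.0978). Mre11a and Nbn, the partners of Rad50 in its complex, differed by -0.12 ± 0.07 and -0.14 ± 0.08. The median of the 18 genes was -0.12. Without wildtype array 2 and Has3-deficient arrays 3 and 4, which were high in nerve genes, it was -0.06, and in the ligated arteries it was 0.03. None of the 18 was high-signal, against 16.2% of all genes.

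Slc25a24, the calcium-regulated carrier that moves ATP-Mg across the inner mitochondrial membrane, had the tightest groups. It read -0.02, 0.00, 0.07 and 0.00 in wildtype and -0.39, -0.41, -0.38 and -0.35 in Has3-deficient arrays. The gap between the groups was wider than the range of either, and the difference was -0.39 ± 0.05 (adjusted p = 0.0339). Mospd2, a membrane protein of contact sites of the endoplasmic reticulum, differed by -0.44 ± 0.07, and Pqlc3, a PQ-loop membrane protein, by -0.40 ± 0.07 (both adjusted p = 0.0476). Vwa5a, a protein with a von Willebrand factor A domain, differed by -0.37 ± 0.06 (adjusted p = 0.048).

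The largest lower difference among the genes that passed was that of the long noncoding RNA E030003E18Rik. It read 0.76, 1.09, 0.89 and 0.73 in wildtype and 0.36, -0.18, -0.15 and 0.18 in Has3-deficient arrays, a difference of -0.82 ± 0.14, or 1.76-fold lower (adjusted p = 0.0476). Has3-deficient array 1 came nearest to the wildtype range without reaching it. Gm14403, another noncoding transcript by the RefSeq table, differed by -0.51 ± 0.08 (adjusted p = 0.0385), and 1810010H24Rik by -0.45 ± 0.07 (adjusted p = 0.0476), both without overlap.

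**Figure D1:**
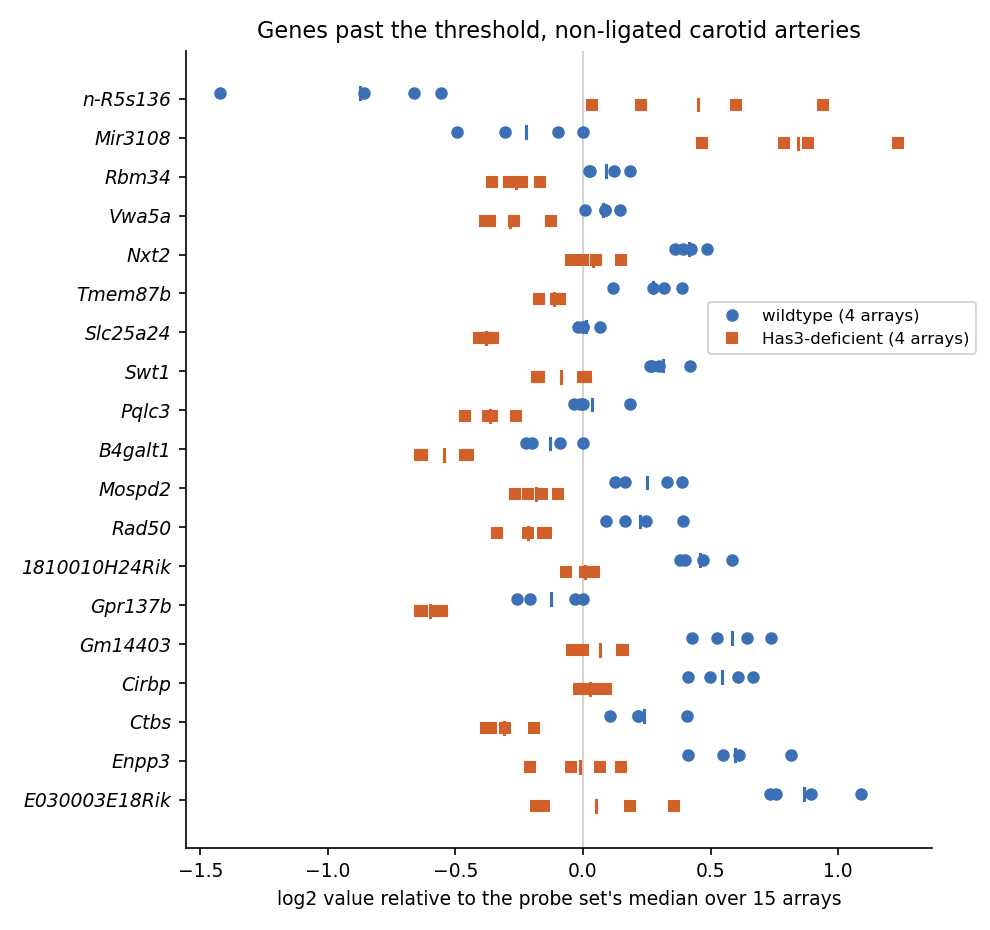
Log2 value of the 19 genes that passed, by array, in non-ligated arteries, relative to each probe set's median over the 15 arrays. Circles are the 4 wildtype arrays, squares the 4 Has3-deficient arrays and short lines the group means; no gene has overlapping groups, since the test chose genes of this kind.

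How many genes passed depended on single arrays. Each of the 19 kept its direction in all 8 fits that leave out 1 non-ligated array. That was fixed in advance, since groups that do not overlap cannot change order when 1 array is left out. With a fit of the 8 non-ligated arrays alone 0 genes passed (2299 at an unadjusted limma p of 0.05), and the adjusted p of the 19 ran from 0.207 to 0.231. None passed without wildtype array 2, wildtype array 3, Has3-deficient array 2 or Has3-deficient array 3, with 2418, 2537, 2773 and 2955 genes at an unadjusted limma p of 0.05. Without wildtype array 1 or 4, 9 and 12 genes passed. With quantile normalization of the arrays 17 genes passed, 0 higher and 17 lower, of which 9 were among the 19. There n-R5s136 differed by 1.40 ± 0.25 (adjusted p = 0.0528), and Mir3108, with a larger difference and a larger SE (0.29) than without it, had an adjusted p of 0.0588. Without Has3-deficient array 4, which was high in nerve, fat and skeletal muscle genes, 280 genes passed, 57 higher and 223 lower, and all 19 were among them.

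**Figure D2:**
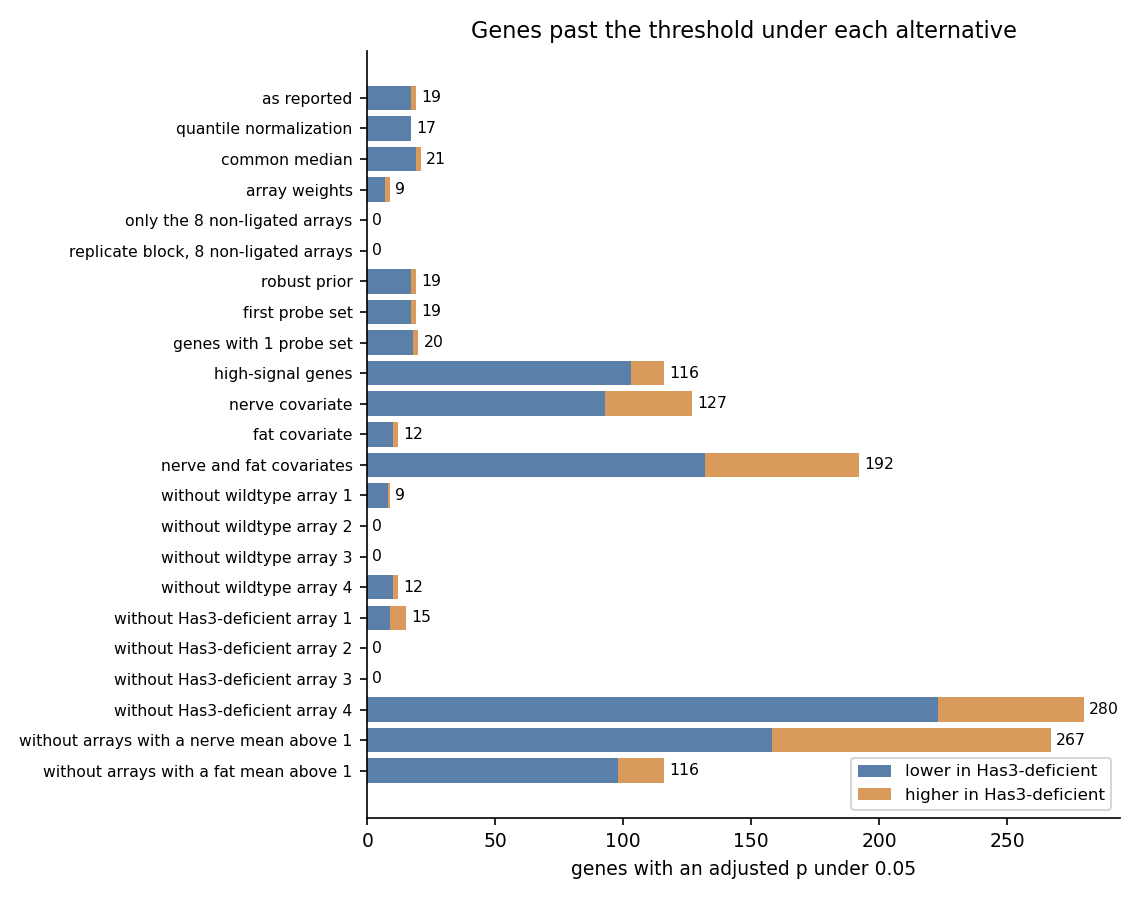
Number of genes with an adjusted p under 0.05 in non-ligated arteries, under the settings reported here and under each alternative (bars; genes lower and higher in Has3-deficient arteries are stacked). The count runs from 0 to 280, and the lower genes outnumber the higher ones wherever any gene passed.

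Predicted genes aside, the largest differences were those of nerve genes, and none of them passed. Snap25, which encodes a protein of synaptic vesicle fusion, read 0.00, 4.43, -0.26 and -0.35 in wildtype and 2.72, -0.09, 6.58 and 3.65 in Has3-deficient arrays. Wildtype array 2 and Has3-deficient arrays 1, 3 and 4 were high and the groups overlapped, so that a difference of 2.26 ± 1.24 had an adjusted p of 0.46. Th, the rate-limiting enzyme of noradrenaline synthesis, read -0.07, 3.90, -0.13 and -0.29 in wildtype and 2.69, 0.00, 5.93 and 3.07 in Has3-deficient arrays (difference 2.07 ± 1.07, adjusted p = 0.426). Chrna3, Chga, Syt1 and Fabp7, genes of ganglion neurons, their granules and vesicles and of glia, completed the 6 largest higher differences, from 1.60 to 1.74, and none of these passed either (adjusted p = 0.234 to 0.521).

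The same arrays stood out over the whole nerve lists. The mean of 39 genes of sympathetic and other neurons was -0.19, 1.53, -0.16 and -0.14 in wildtype and 0.71, -0.02, 3.18 and 1.01 in Has3-deficient arrays. Wildtype array 2 and Has3-deficient arrays 1, 3 and 4 lay above the other 4. All 16 sympathetic genes and all 23 general neuron genes had a positive difference, with medians of 1.04 and 0.81, and 0 of the 39 passed. Of the sympathetic genes 7 were higher at an unadjusted p of 0.05 (43.8% against 5.34% of all genes). In 2, Hand2 and Cartpt, the groups did not overlap (12.5% against 2.40%), with differences of 0.77 ± 0.26 and 0.15 ± 0.06 (adjusted p = 0.212 and 0.286). Of the general neuron genes 0 met either mark. Of 17 Schwann cell and myelin genes 15 were positive (median 0.11). In the ligated arrays the nerve mean lay between -0.18 and 0.16.

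Fat genes stood out in a different set of arrays, with Has3-deficient array 4 high in both nerve and fat genes. The mean of 33 white and brown fat genes was 1.62, 0.38, -0.20 and 0.11 in wildtype and -0.06, -0.31, 0.46 and 1.53 in Has3-deficient arrays, so that wildtype array 1 and Has3-deficient array 4 were high. Adipoq, the fat hormone adiponectin, differed by -0.12 ± 0.43, and Ucp1, the uncoupling protein of brown fat, by -0.03 ± 1.57, ranging from -2.02 to 4.01 in wildtype and from -2.77 to 3.86 in Has3-deficient arrays. Elovl3, a fatty acid elongase of brown fat, was at 4.06 in wildtype array 1 and differed by -1.05 ± 0.78 (adjusted p = 0.599). Skeletal muscle genes had a mean of 0.54 in Has3-deficient array 4 and of -0.09 to 0.11 in the other 7 arrays. The part of skeletal muscle RNA in the results was not tested; fits that take nerve and fat genes into account follow.

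**Figure D3:**
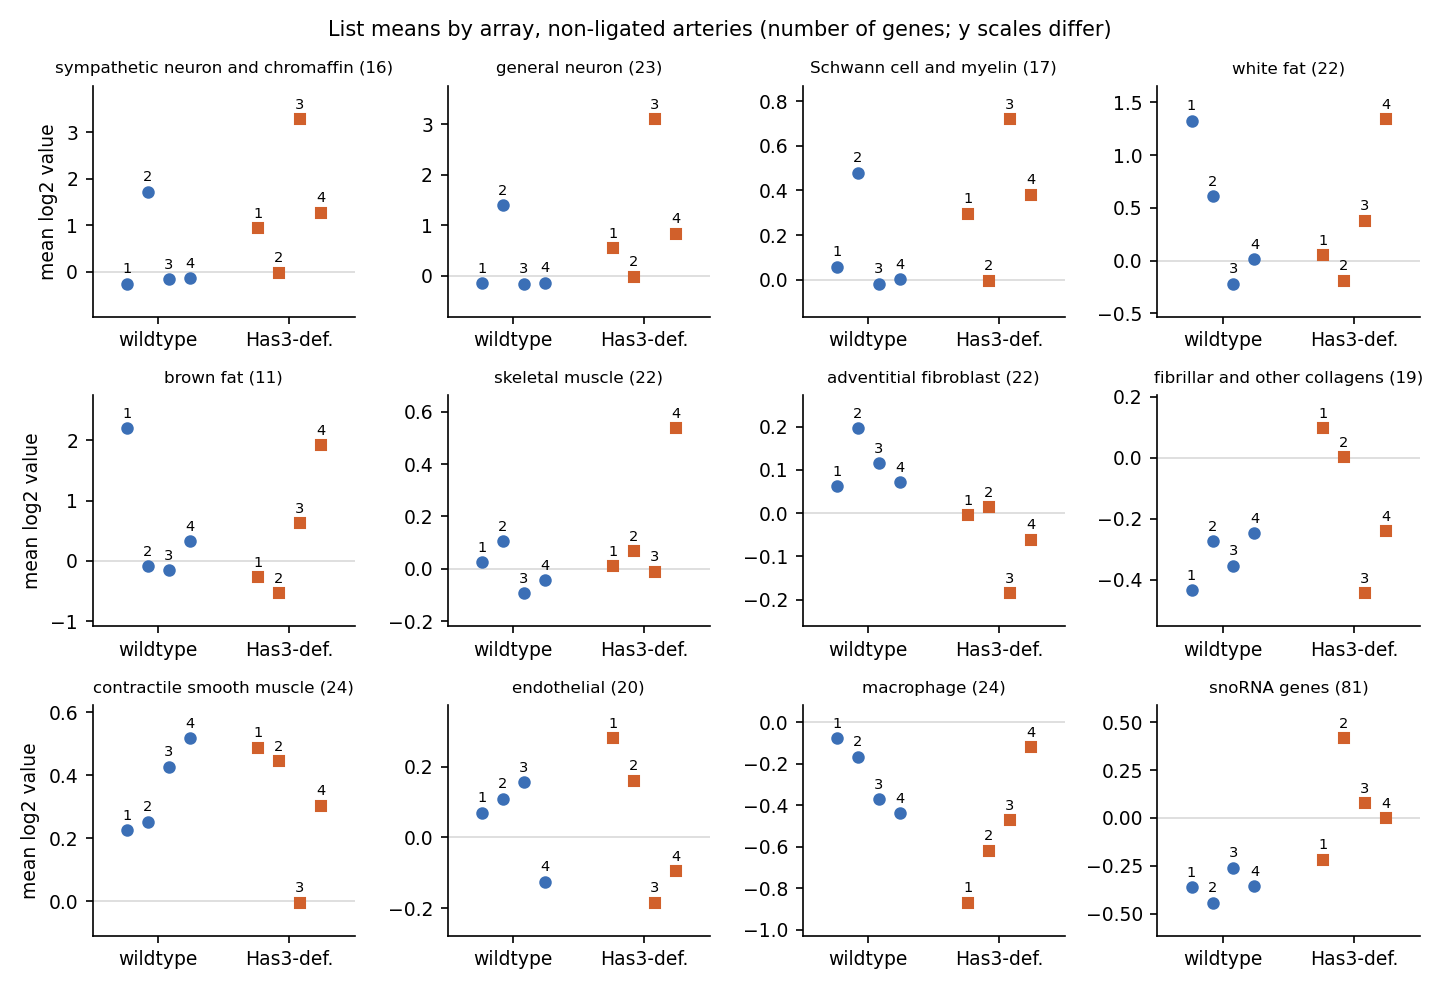
Mean log2 value of the measured genes of 12 lists by array in non-ligated arteries (circles wildtype, squares Has3-deficient, numbers the array within its group; the scales differ). Neuron genes are high in wildtype array 2 and Has3-deficient arrays 1, 3 and 4, fat genes in wildtype array 1 and Has3-deficient array 4, while the adventitial fibroblast and snoRNA means do not overlap between the groups.

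With the nerve mean and the fat mean of each array as covariates in the same fit, 192 genes passed, 60 higher (0.271%) and 132 lower (0.595%), among them all 19. The nerve mean alone gave 127 genes including the 19, and the fat mean alone gave 12, of which 9 were among the 19. The nerve genes make up one of these covariates, so their own differences shrank by construction in the medians, to 0.12 for the sympathetic list and -0.04 for the general neuron list. Of the named members Dbh, another enzyme of noradrenaline synthesis, then differed by -0.70, Snap25 by 0.26 and Chga by 0.89 (adjusted p = 0.528, 0.831 and 0.359), and Pnmt, which makes adrenaline, passed as higher (0.46, adjusted p = 0.0447). The 192 depended on single arrays as well: 0 passed without Has3-deficient array 2 (2472 at an unadjusted limma p of 0.05), 4 without wildtype array 3, 33 without wildtype array 2, 100 without Has3-deficient array 1 and 1 with the 8 non-ligated arrays alone. Without the 3 arrays whose nerve mean exceeded 1 (wildtype 2, Has3-deficient 3 and 4), 267 genes passed, 109 higher and 158 lower, including 12 of the 19. This left Has3-deficient arrays 1 and 2 alone in their group, and array 1 still had a nerve mean of 0.71. Without the arrays whose fat mean exceeded 1 (wildtype 1, Has3-deficient 4), 116 passed, including 16 of the 19.

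Among the genes that passed with the covariates, predicted genes aside, n-R5s136 and Mir3108 had the largest higher differences, 1.44 and 1.14 (adjusted p = 0.0236 and 0.0213). The largest lower differences there were those of Folh1, a membrane carboxypeptidase (-1.07), Elovl6, a fatty acid elongase (-1.02), Ly86, a partner of a Toll-like receptor homologue on myeloid cells (-1.02), Dpp4, a cell surface dipeptidase (-1.003), and Lrrn4cl (-1.002). Their adjusted p ran from 0.0225 to 0.0324, whereas without covariates it ran from 0.0595 to 0.543. Lrrn4cl read 0.23, 0.35, 0.30 and 0.29 in wildtype and -0.58, -0.77, -0.39 and -0.70 in Has3-deficient arrays. Dpp4 read 0.72, 0.55, 0.00 and 0.11 in wildtype and -0.50, -1.04, -0.52 and -0.27 in Has3-deficient arrays. The groups of both genes did not overlap, nor did those of Folh1, whereas those of Ly86 and Elovl6 overlapped. Elovl6 read 2.16, 1.13, 0.44 and 0.23 in wildtype and -0.855, -0.70, 1.01 and 1.28 in Has3-deficient arrays. Without covariates it differed by -0.805 ± 0.528 (adjusted p = 0.543). It was highest in wildtype array 1 and Has3-deficient array 4, which were also high in fat genes. The part of fat RNA in its difference was not tested further.

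Genes of adventitial fibroblasts were the wall group with the most lower differences. Of 22 measured, 19 had a negative difference, 10 of them at an unadjusted p of 0.05 (45.5% against 8.09% of all genes) and 6 with groups that did not overlap (27.3% against 3.82%), and the median was -0.18 against 0.01 over all genes; 0 passed. Their mean was 0.06 to 0.20 in wildtype and -0.19 to 0.01 in Has3-deficient arrays, with no overlap. In bulk tissue fewer cells of a type and less RNA per cell cannot be told apart.

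Pi16, a marker of fibroblast progenitors, read 0.56, 0.64, 0.54 and 0.50 in wildtype and 0.36, 0.10, 0.27 and 0.00 in Has3-deficient arrays (difference -0.38 ± 0.07, adjusted p = 0.0615). Dpt, which encodes the matrix protein dermatopontin, read 0.20, 0.41, 0.21 and 0.23 in wildtype and -0.35, -0.25, 0.00 and -0.15 in Has3-deficient arrays (difference -0.45 ± 0.09, adjusted p = 0.0615). Both were apart between the groups and just missed the threshold. Lum, the collagen-binding proteoglycan lumican, differed by -0.42 ± 0.11 and Pdgfra, the receptor that marks fibroblasts, by -0.29 ± 0.09 (adjusted p = 0.113 and 0.192). With the covariates Pi16, Dpt and Lum fell by 0.43, 0.55 and 0.53 (adjusted p = 0.0287, 0.0225 and 0.0484), and the list's median was -0.12. Without the 3 arrays high in nerve genes the list's median was -0.06, with 1 gene lower past the threshold (158 of all 22180 genes).

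Of the 28 other matrix and crosslinking genes measured 12 were positive and 16 negative (median -0.02), and 0 passed. At an unadjusted p of 0.05 there were 5 lower (17.9% against 8.09% of all genes) and 1 higher (3.57% against 5.34%). In 3 the groups did not overlap, all lower (10.7% against 3.82%). These were Ogn, Omd and Aspn, small leucine-rich proteoglycans like lumican. They differed by -0.42 ± 0.12, -0.68 ± 0.20 and -0.49 ± 0.19, and none passed (adjusted p = 0.159, 0.159 and 0.282). Dcn, decorin, differed by -0.27 ± 0.09 and passed with the covariates (-0.35, adjusted p = 0.0447). Bgn, Fmod and Prelp of the same family differed by 0.02 ± 0.09, -0.13 ± 0.11 and -0.02 ± 0.10.

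Most collagen genes had a positive difference. Of 19 measured 17 were positive (median 0.18 against 0.01 over all genes), 3 at an unadjusted p of 0.05 (15.8% against 5.34% of all genes), and 0 passed. Col1a1, a chain of type I collagen, read -0.75, -0.64, -0.66 and -0.44 in wildtype and 0.00, -0.01, -0.50 and -0.28 in Has3-deficient arrays. Has3-deficient array 3 lay inside the wildtype range, and the difference was 0.42 ± 0.10 (adjusted p = 0.0978). Col5a3 was the only collagen that was higher without overlap (5.26% against 2.40% of all genes), by 0.50 ± 0.12 (adjusted p = 0.0978). Col14a1, a collagen associated with fibrils, was the only one lower without overlap (5.26% against 3.82%), by -0.23 ± 0.08 (adjusted p = 0.223).

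Col4a1 and Col4a2, the chains of basement membrane collagen, were high in Has3-deficient arrays 1 and 2 alone. Col4a2 read -0.29, -0.26, -0.16 and 0.00 in wildtype and 0.61, 0.65, -0.45 and 0.00 in Has3-deficient arrays. With the covariates Col1a1, Col4a1 and Col4a2 rose by 0.52, 0.53 and 0.61 (adjusted p = 0.0237, 0.0484 and 0.0447). Without the 3 arrays high in nerve genes 6 of 19 collagens were higher past the threshold (109 of all 22180 genes) and the median was 0.45. That fit kept only Has3-deficient arrays 1 and 2, whose collagen means were the highest of their group (0.096 and 0.001). The dropped Has3-deficient arrays 3 and 4 had means of -0.444 and -0.24, against -0.435 to -0.248 in the wildtype arrays. Leaving out 1 array at a time moved the list's median between 0.09 and 0.29.

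No gene of the contractile media passed. Of 24 measured 9 were positive and 15 negative (median -0.04, from -0.09 to 0.07 with 1 array left out at a time), and 0 passed with the covariates as well. Acta2, smooth muscle actin, differed by -0.05 ± 0.07, Myh11, smooth muscle myosin, by -0.02 ± 0.16, and Tagln, transgelin, by 0.03 ± 0.12. Cald1, the actin-binding protein caldesmon, had the lowest p of the list and differed by -0.27 ± 0.08 (adjusted p = 0.165). It was the only member with groups that did not overlap (4.17% against 3.82% of all genes). The list's mean was lowest in Has3-deficient array 3, at -0.01, against 0.23 to 0.52 in the other 7 arrays, and that array was the one highest in neuron genes.

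Endothelial genes were balanced, with 11 positive and 9 negative of 20 (median 0.01, from -0.09 to 0.05 with 1 array left out at a time) and 0 passing, with or without the covariates. Cdh5, the junction protein VE-cadherin, differed by -0.16 ± 0.14, Vwf by 0.02 ± 0.22, and Erg, an endothelial transcription factor, by -0.39 ± 0.10 with an unadjusted p of 0.002. Of 13 pericyte, venous or capillary genes 7 were positive. Kcnj8, a potassium channel of pericytes, was the only one without overlap (7.69% against 3.82% of all genes), lower by 0.39 ± 0.12 (adjusted p = 0.183).

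Most macrophage genes had a negative difference. Of 24 measured 19 were negative, 8 at an unadjusted p of 0.05 (33.3% against 8.09% of all genes) and 1 with groups that did not overlap (4.17% against 3.82%), with a median of -0.29; 0 passed. Leaving out 1 array at a time moved this median between -0.41 and -0.16. Mrc1, the mannose receptor, read -0.16, 0.00, -0.41 and -0.59 in wildtype and -1.33, -1.23, -0.91 and -0.47 in Has3-deficient arrays. Has3-deficient array 4 lay inside the wildtype range. The difference was -0.70 ± 0.17 (adjusted p = 0.1). Folr2, a folate receptor of resident macrophages, differed by -0.71 ± 0.20 (adjusted p = 0.141).

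With the covariates Mrc1 and Folr2 fell by 0.78 and 0.85 (adjusted p = 0.0336 and 0.0229). Cbr2, a carbonyl reductase, was the member without overlap (-0.22 ± 0.06, adjusted p = 0.131). The largest lower difference of the 18984 protein-coding genes was that of Retnla, a secreted protein of alternatively activated macrophages and of fat. It read 1.53, 0.37, 0.12 and 0.70 in wildtype and -1.53, -0.28, -0.33 and 0.06 in Has3-deficient arrays, and differed by -1.20 ± 0.37 (adjusted p = 0.181). Akr1c18, a steroid dehydrogenase, differed by -1.10 ± 0.36 without overlap, and Lyz1, a lysozyme, by -1.01 ± 0.48 with overlap (adjusted p = 0.204 and 0.383). Genes of neutrophils, T and NK cells, B cells and mast cells had medians of 0.10, -0.00, -0.04 and -0.03, and 0 passed.

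Lysosomal genes had 2 of the 19 among their 36 measured members, Ctbs and Gpr137b, and 25 of the 36 were negative (median -0.11). In 6 the groups did not overlap, all lower (16.7% against 3.82% of all genes). Ppt1, the palmitoyl thioesterase, differed by -0.43 ± 0.08, Lamp2, a protein of the lysosomal membrane, by -0.34 ± 0.07, Tpp1, a peptidase, by -0.27 ± 0.06, and Ctsh, cathepsin H, by -0.35 ± 0.08 (adjusted p = 0.0615 to 0.0795). With the covariates 5 of the 36 passed, all lower: Ctbs, Gpr137b, Ppt1, Lamp2 and Ctsh. Of all 22180 genes 132 were lower past the threshold in that fit (0.595%). Other members such as Psap, Lamp1 and Npc2 differed by 0.05 ± 0.05, 0.10 ± 0.08 and 0.08 ± 0.10. Without the 3 arrays high in nerve genes the list's median was 0.01, with 3 genes lower past the threshold (158 of all 22180 genes).

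Among 35 genes that make, bind or break hyaluronan 13 were positive and 22 negative (median -0.07), and 0 passed with or without the covariates. Itih2, whose protein chain is coupled to hyaluronan, was the only member without overlap (2.86% against 3.82%). It read 0.49, 0.76, 0.66 and 0.71 in wildtype and 0.26, 0.37, 0.00 and 0.07 in Has3-deficient arrays and differed by -0.48 ± 0.10 (adjusted p = 0.0763). The receptor Cd44 differed by -0.28 ± 0.13, the proteoglycan Vcan by -0.28 ± 0.14, and the hyaluronidase-like Cemip by 0.35 ± 0.16.

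The sugar nucleotide enzymes that feed hyaluronan and glycan synthesis, with the galactosyltransferases, had 10 positive and 12 negative differences of 22 (median -0.02). B4galt1 passed. At an unadjusted p of 0.05 there were 7 lower (31.8% against 8.09% of all genes) and 1 higher (4.55% against 5.34%), and 3 lower genes had groups that did not overlap (13.6% against 3.82%). The 3 were B4galt1, Pgm3, an enzyme of the hexosamine pathway (-0.38 ± 0.09, adjusted p = 0.0928), and Gnpda1 (-0.47 ± 0.17, adjusted p = 0.25). Gfpt2, which starts the same pathway, differed by -0.76 ± 0.18 with groups that overlapped. Ugdh, which makes UDP-glucuronic acid, differed by -0.26 ± 0.10. With the covariates 2 genes of this list passed, both lower, namely Gfpt2 and B4galt1 (0.595% of all genes were lower past the threshold there).

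Most small structured RNAs had a positive difference. Of 81 snoRNA genes, a class in which many products guide chemical marks on ribosomal RNA, 70 were positive, and the median was 0.40 against 0.01 over all genes. At an unadjusted p of 0.05 there were 38 higher (46.9% against 5.34% of all genes) and 1 lower, and in 17 the groups did not overlap, all higher (21.0% against 2.40%); 0 passed. The mean over the class was -0.36, -0.44, -0.26 and -0.36 in wildtype and -0.22, 0.42, 0.08 and 0.00 in Has3-deficient arrays. Every Has3-deficient array was above every wildtype array, though array 1 only just, and array 2 was the highest.

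Snora75 read -1.16, -1.08, -0.55 and -0.90 in wildtype and -0.30, 0.67, 0.00 and 0.00 in Has3-deficient arrays (difference 1.02 ± 0.20, adjusted p = 0.0714). Snord99 had a larger difference, 1.46 ± 0.36, with more spread (adjusted p = 0.0995). With the covariates 5 of the 81 snoRNA genes passed, all higher: Snora75, Snord55, Snord118, Snora33 and Snord15a. Of all 22180 genes 60 were higher past the threshold in that fit (0.271%). In the ligated arteries the median of the class was -0.04. Leaving out 1 array at a time moved the non-ligated median between 0.25 and 0.49.

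Of 18 other structured RNAs, among them the 5S gene above, 16 were positive (median 0.32). Rny1, a Y RNA, and Rpph1, the RNA of ribonuclease P, differed by 0.60 ± 0.15 and 0.68 ± 0.21 (adjusted p = 0.113 and 0.191) and passed with the covariates (adjusted p = 0.0361 and 0.0237). Rn7sk and Terc, the latter the telomerase RNA, differed by 0.02 and 0.07. The 478 microRNA genes had a median difference of 0.01, equal to that of all genes, and Mir3108 alone of them passed.

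Clock, immediate early and respiratory chain genes had medians of 0.12, -0.03 and -0.11, with 0 genes passing. None of these signs was stable: with 1 array left out at a time the medians ran from -0.07 to 0.30, from -0.11 to 0.06 and from -0.31 to 0.09. Genes of lymphatic endothelium, epithelium, thyroid and blood cells had medians of 0.09, 0.08, 0.07 and 0.13, again with 0 passing. The mean of the respiratory chain genes was 0.84 in wildtype array 1, which was also highest in fat genes.

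In ligated arteries the same genotype contrast used other arrays, and 0 genes passed there (910 at an unadjusted limma p of 0.05, 4.10%). Of the 17 lower genes 13 were negative there too, but between -0.17 and 0.07, and Pqlc3 alone had an unadjusted limma p below the threshold (-0.17; 2.27% of all genes were lower at that p). Over all 22180 genes the correlation between the non-ligated and the ligated difference was 0.05; genes are not independent and this value is a description. The median of the adventitial genes was 0.07 in the ligated arteries, that of the collagens 0.00 and that of the macrophage genes -0.05. The contractile genes had a median of 0.29 there, with 11 of 24 higher at an unadjusted p of 0.05 (1.83% of all genes).

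The interaction of genotype and ligation, which tests whether the genotype difference differs between the artery states, gave 0 genes past the threshold (1802 at an unadjusted limma p of 0.05, 8.12%; lowest adjusted p 0.44). A genotype difference particular to non-ligated arteries was therefore not shown for any single gene. For Mir3108 the 2 differences were 0.10 ± 0.20 apart (adjusted p = 0.918).

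**Figure D4:**
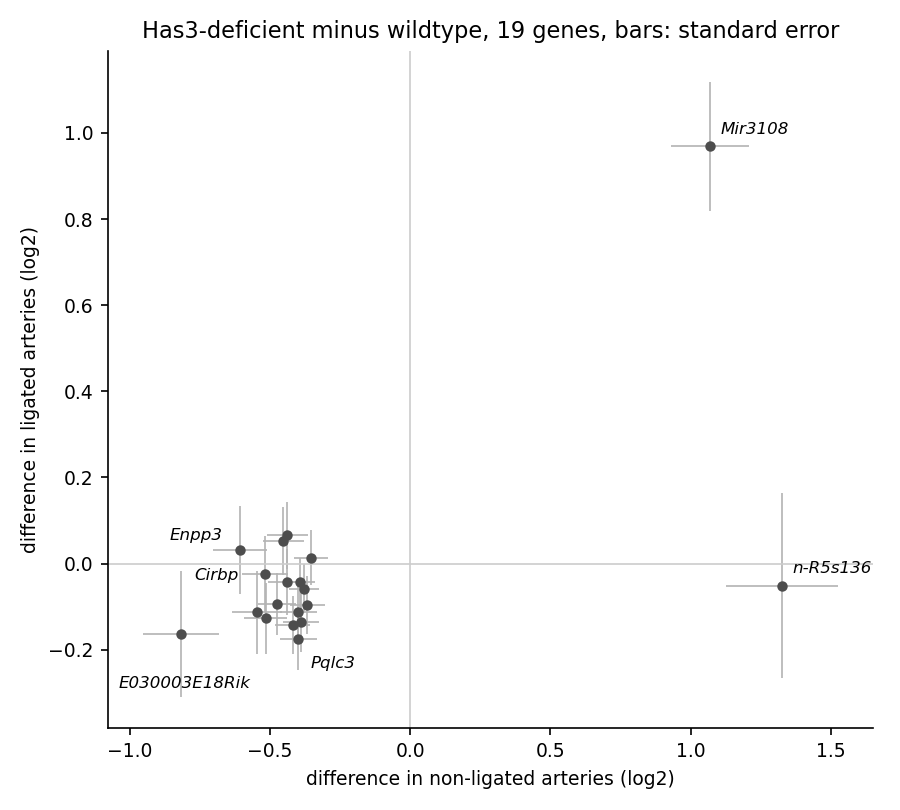
Has3-deficient minus wildtype difference (log2) of the 19 genes in non-ligated arteries, by which they were chosen (horizontal), and in ligated arteries (vertical), with standard errors. Mir3108 is near 1 on both axes, and the other 18 genes lie between -0.17 and 0.07 on the vertical axis.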

How the data were processed

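Total RNA of whole carotid arteries (100 ng per sample) was amplified and hybridised with an Affymetrix WT Plus kit, per the labels' protocols. The authors deposited a table of log2 values in which each probe set is centred on its own median over the 15 arrays, as the values show; that they are on a log2 scale was inferred from the numbers. Each of normalization, software and annotation build is not given in the sources used here. Array medians lie between -0.00 and 0.02. Gene names came from the platform's annotation and the RefSeq gene table of assembly GRCm38.p6; of the probe sets, 1814 with several symbols and 8458 with none stayed out of the gene test. Probe sets of a gene were averaged (1082 genes had several). As levels are lost, no filter on dim genes could be used other than the one on number steps.

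The 4 groups were fitted in limma 3.58.1 (R 4.3.3) with lmFit and eBayes, two-sided, with Benjamini-Hochberg adjustment over 22180 genes (11 residual and 2.69 prior degrees of freedom). Errors are standard errors of the fitted difference, Has3-deficient minus wildtype; 4 arrays a group limit the precision. The script was tested on simulated data. Alternatives changed the scaling, array weights, arrays, prior, probe set rule, gene filter and the nerve and fat covariates. Genes named are the synthases, all genes that passed, the 6 largest differences in each direction (predicted genes left out), up to 4 members without overlap per list, the 5 largest in each direction with covariates, and defining markers; other members named as examples were chosen after their values were seen. The members and lists were chosen with earlier results of these data known, so no test is given for a list.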

Additional observations from a re-analysis of the deposited data

Results flagged for a closer look

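Over 222 groups of 4 arrays, for the named genes and the list means, 22 had 1 array far from the other 3 (a gap above Dixon's critical value); chance marks about 1 group in 20. Wildtype array 2 stood apart for nerve genes, Dbh at 5.09, Snap25 at 4.43, Th at 3.90, Syt1 at 3.78, Chrna3 at 3.72, Stmn2 at 2.32 and Chga at 0.97, with list means of 1.72 for sympathetic neurons, 1.40 for general neurons and 0.48 for Schwann cells. The same array stood apart for Folh1 at 1.12, Dpt at 0.41 and Fa2h, a myelin lipid enzyme, at -0.16. Wildtype array 1 stood apart for Elovl3 at 4.06, Hand2, a factor of sympathetic neurons, at -0.13 and the respiratory chain mean at 0.84. Wildtype array 3 stood apart for Pqlc3, at 0.18, and for the T and NK cell mean, at -0.018. Has3-deficient array 4 stood apart for the skeletal muscle mean at 0.54, Tnnc2, a troponin of fast muscle, at 0.57 and Omd at 0.26, and Has3-deficient array 2 for the mean of genes within 5 Mb of Has3, at 0.051.

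Probe sets outside the gene test were fitted apart. Of 8458 without a gene symbol 5 passed, 4 higher and 1 lower in Has3-deficient arteries, and of 1814 with several symbols 1 passed, higher.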

How the results depend on the processing

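The 19 genes that passed became 17 with quantile normalization (0 higher; 9 shared), 21 with a common median, 9 with array weights, 19 with a robust prior or the first probe set, 20 with genes of 1 probe set, 12 with the fat covariate, 127 with the nerve covariate, 192 with both, 116 among high-signal genes (13 higher, 103 lower; 7 shared) and 0 with the 8 non-ligated arrays alone (2299 at an unadjusted limma p of 0.05). Without arrays with a nerve mean above 1 it was 267, without those with a fat mean above 1 it was 116, and leaving out each replicate gave 0 to 280. The count with both covariates was 0 to 260 when each replicate was left out, and 1 with the 8 arrays; these were chosen after seeing the data, as were the nerve and fat exclusions. With the replicate number as a block 0 passed (1688 at an unadjusted limma p of 0.05). In their deviations from the group means same-numbered arrays correlated between -0.40 and -0.24, so no likeness by number was seen. Nerve and fat RNA enter these deviations, so they cannot settle whether the numbers mark a pairing or a shared batch.

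Of 75 named genes 8 changed sign under some alternative. With the nerve covariate the differences were Chrna3 -0.11, Syt1 -0.18, Fabp7 -0.012, Dbh -0.81 and Stmn2 -0.29, and with both covariates Chrna3 -0.085, Syt1 -0.16, Dbh -0.70 and Stmn2 -0.29. Has3 was -0.012 to 0.15 when each replicate was left out, lowest without Has3-deficient replicate 2. Adipoq was -0.51 to 0.20 over the left-out replicates, with 0.20 without wildtype replicate 1 and 0.17 without Has3-deficient replicate 2. Ucp1, -1.15 to 1.11 over the left-out replicates, was 0.20 with the fat covariate, 0.15 with both, 1.11 and 0.23 without wildtype replicates 1 and 4, 0.50 and 1.06 without Has3-deficient replicates 1 and 2, and 0.0016 without the arrays high in fat genes. The cause of these changes was not tested. Genes at the edge of the threshold are limited by 4 arrays a group; signal over background is unknown, as the table holds no levels.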
